A study of Chlorocebus aethiops with 12 samples.

Results

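The beta genes of the clustered protocadherins were followed in COS-1 cells, a fibroblast-like line from African green monkey kidney. The set held 10 genes given by RefSeq accession: PCDHB13, PCDHB10, PCDHB11, PCDHB12, PCDHB14, PCDHB15, PCDHB2, PCDHB3, PCDHB4 and PCDHB6. It was chosen from earlier results of the same arrays. PCDHB13 was selected by its lower level under the synthetic glucocorticoid dexamethasone (Dex) in cells with the S211A receptor, and the others were added as members of its family. Of the 10 genes, 9 had a probe on the array (11 probes in all), and 4 were bright enough to be tested among 24586 accessions of the 32379 on the array. No probe carried the accession of PCDHB3, which was not analysed here. The arrays give accessions, and the pairing with symbols came with the gene list.

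Protocadherins of the alpha, beta and gamma clusters are cadherin-type adhesion proteins of the cell surface, encoded in tandem arrays. Each beta gene is a single exon with its own promoter and encodes a whole transmembrane protein. In neurons, which are their best-known site, single cells use different subsets of these promoters, a choice that involves CTCF, cohesin and DNA methylation, and the proteins bind like to like between cells. The beta genes are close copies of one another, so a probe for 1 of them may also bind RNA of a relative, and here probes for the human genes read monkey RNA.

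The study had 4 groups of 3 samples, described in the labels as biological replicates. Every sample had been transfected with S211A, a form of the glucocorticoid receptor in which a serine that is phosphorylated is replaced by alanine, either alone (S211A) or together with MDFIC (S211A+MDFIC). At 48 h after transfection the cells received vehicle or 100 nM Dex for 6 h. Cells with the wild-type receptor or with none are not part of these 4 groups, and the share of cells that took up the plasmids is not given in the sources used here. RNA came from whole cultures, so fewer cells with a transcript and less transcript per cell cannot be told apart. Each array had between 67.8% and 80.6% of its probes well above background. Arrays of 1 group correlated at r between 0.986 and 0.996 across the tested accessions, with most dim probes left out. Levels below are log2 processed signals relative to the array's 75th percentile, so 0 is the signal of that percentile. They compare 1 probe between arrays, never 1 gene with another. The files did not pair accessions with symbols, and marker genes of the cell line were not checked here.

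PCDHB13 (NM_018933, probe A_23_P144627) was lower under Dex with both transfections, by a larger amount than the spread between replicates. Its probe was well above background on all 12 arrays, with spot signals between 56.1 and 220.6 times the local background. In S211A cells its log2 level under vehicle was 2.75, 2.56 and 2.72 in replicates 1 to 3, with a mean of 2.68 ± 0.10 (SD, n = 3). Under Dex the S211A samples read 1.10, 1.19 and 1.01, with a mean of 1.10 ± 0.09 (SD, n = 3). All 3 Dex samples lay below all 3 vehicle samples, and the mean difference was -1.58 on the log2 scale, which leaves 33.5% of the vehicle level. These are the values through which the gene was chosen, so they are a description and carry no test.

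The S211A+MDFIC arrays are other samples than those that led to PCDHB13. Under vehicle its log2 level there was 2.39, 2.24 and 2.55, with a mean of 2.39 ± 0.15 (SD, n = 3). Under Dex it was 1.27, 1.12 and 1.38, with a mean of 1.25 ± 0.13 (SD, n = 3). The groups again did not overlap: the highest Dex sample lay below the lowest vehicle sample. PCDHB13 fell by 1.14 on the log2 scale (SE 0.10, 95% interval -1.36 to -0.92, limma adjusted p = 8.45e-05), to 45.5% of the vehicle level. That fit takes its spread from all 12 arrays, including those that led to PCDHB13. With only the S211A+MDFIC arrays fitted, the SE was 0.11 and the limma adjusted p = 0.00564.

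**Figure D1:**
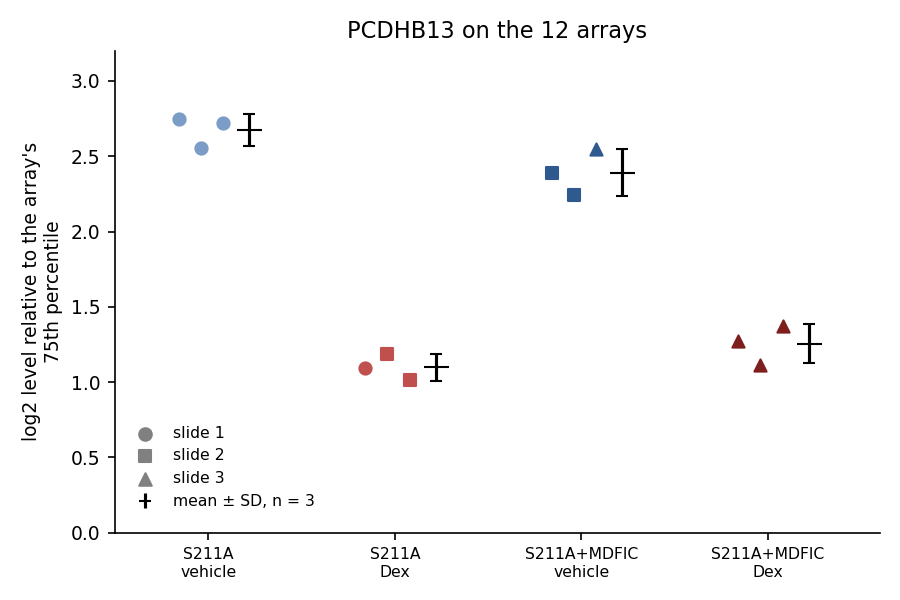
Log2 level of PCDHB13 relative to each array's 75th percentile (vertical axis) in the 4 groups (horizontal axis), with 1 point per array and the group mean with its SD (n = 3). The 3 Dex arrays lie below the 3 vehicle arrays with each transfection, with means of 1.10 against 2.68 in S211A and 1.25 against 2.39 in S211A+MDFIC.

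The unscaled processed signals of PCDHB13 show the same separation. They were 5842, 5842 and 5839 in S211A vehicle and 1879, 2082 and 1827 in S211A Dex. In S211A+MDFIC they were 5493, 4354 and 6076 under vehicle and 2578, 2185 and 2223 under Dex. No vehicle array read below 4354 and no Dex array above 2578.

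Most accessions moved far less. The 5th and 95th percentiles of the log2 Dex change over all tested accessions were -0.34 and 0.65 in S211A. In S211A+MDFIC they were -0.35 and 0.63. The median, in which rises and falls cancel, was 0.02 in S211A and 0.05 in S211A+MDFIC. In S211A+MDFIC, 918 accessions fell at an adjusted p under 0.05, which is 3.73% of those tested, and PCDHB13 had the 14th largest fall among them. An equal or larger fitted fall was seen in 0.297% of tested accessions. Among the 20979 accessions well above background on all 12 arrays, PCDHB13 had the 19th largest fall in S211A+MDFIC. In S211A, the comparison that chose it, it had the 2nd largest.

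**Figure D2:**
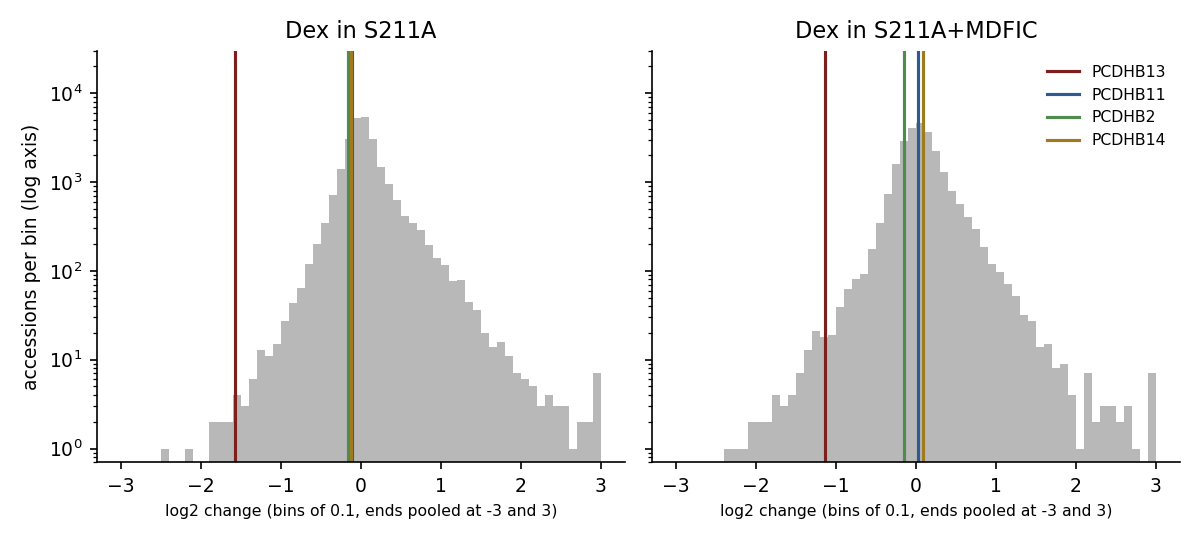
Histograms of the log2 Dex change (horizontal axis) over the 24586 tested accessions (vertical axis, number of accessions), 1 panel for S211A and 1 for S211A+MDFIC, with the 4 tested protocadherin genes marked. PCDHB13 lies in the left tail at -1.58 and -1.14, while PCDHB11, PCDHB14 and PCDHB2 lie between -0.16 and 0.09, near the centre.

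The arrays lay on 3 slides of 4, and treatment was not spread evenly over them. All S211A vehicle arrays shared slide 1 with a single Dex array of that transfection. Both of its other Dex arrays lay on slide 2, beside S211A+MDFIC vehicle replicates 1 and 2. The remaining vehicle array of S211A+MDFIC shared slide 3 with all of its Dex arrays. Within slide 1 the vehicle mean of PCDHB13 was 2.68 and the Dex array read 1.10, a difference of -1.58. Within slide 3 the vehicle array read 2.55 and the Dex mean was 1.25, a difference of -1.29, which did not pass there (limma adjusted p = 0.138, unadjusted p = 0.000848). With that single vehicle array limma called 0 of 24583 accessions within slide 3, and 2051 had an unadjusted p under 0.05. With slide as a fixed block in the limma fit, the change in S211A+MDFIC was the same -1.29. Only slide 3 held both treatments of that transfection. The blocked estimate therefore rests on the same single vehicle array and is no separate check. Arrays of 1 group on different slides differed by 0.0051 for S211A Dex (slide 2 minus slide 1) and by 0.23 for S211A+MDFIC vehicle (slide 3 minus slide 2). These set 1 array against another 2, and the part of slide in the Dex change was not tested further.

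PCDHB11 (NM_018931, probe A_23_P167401) was the other beta protocadherin well above background on every array, and it did not pass the test for Dex. Its spot signals were 6.44 to 13.5 times the local background. Its log2 level was -2.35, -2.44 and -2.20 in S211A vehicle and -2.38, -2.57 and -2.36 in S211A Dex, a mean difference of -0.11. In S211A+MDFIC it was -2.28, -2.36 and -2.30 under vehicle and -2.10, -2.52 and -2.25 under Dex. Vehicle and Dex overlapped with both transfections. The change in S211A+MDFIC was 0.02 (95% interval -0.22 to 0.26, limma adjusted p = 0.912), so that interval does not reach the size of the PCDHB13 fall.

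PCDHB2 and PCDHB14 were dim, and their intervals are wide. The brighter PCDHB2 probe (A_24_P251962) was well above background on 10 of 12 arrays, with processed signals from 11.6 to 30.1. The exceptions were S211A Dex replicate 1 and S211A+MDFIC Dex replicate 3. PCDHB2 thus entered the test only through its vehicle groups, which can favour a lower Dex value. Its other probe (A_23_P213375) was well above background on none, at 2.35 to 4.28, so a single probe speaks for the gene. The PCDHB2 difference under Dex was -0.16 in S211A and -0.15 in S211A+MDFIC (95% interval of the latter -0.79 to 0.48, limma adjusted p = 0.768). The PCDHB14 probe was well above background on 9 of 12 arrays, at 11.1 to 33.1. It entered the test through S211A Dex and S211A+MDFIC vehicle. Its difference was -0.13 in S211A and 0.09 in S211A+MDFIC (95% interval of the latter -0.74 to 0.92, limma adjusted p = 0.903). Vehicle and Dex samples overlapped for both genes with both transfections. With slide as a fixed block, the change in S211A+MDFIC was -0.51 (SE 0.50) for PCDHB14, turned in sign, and -0.0095 (SE 0.36) for PCDHB2. Both values set the Dex arrays of slide 3 against its single vehicle array, replicate 3. That array had the highest PCDHB14 level, -4.97. In S211A the PCDHB2 difference was -0.66 with that block. It sets Dex replicate 1 alone (-5.99, not well above background) against the vehicle mean of -5.33. These probes are too dim to give a direction.

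Across the 4 tested genes, 1 passed the test for Dex in S211A+MDFIC, against 9.99% of all tested accessions in either direction (2457). Without S211A+MDFIC Dex replicate 2 this background count was 4695, and without S211A+MDFIC vehicle replicate 1 it was 1176. PCDHB13 passed without either, with changes of -1.07 and -1.14 on the log2 scale. Vehicle and Dex samples did not overlap for 1 of the 4, against 31.6% of all tested accessions. In S211A 1 of the 4 was called, against 6.5% of all, and 1 of 4 did not overlap, against 25.9%, but these counts hold the gene the comparison had chosen and nothing is read from them. In each case the gene was PCDHB13, which was in the set for its lower level under Dex in S211A. The S211A+MDFIC counts are therefore not read as a result about the family either.

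**Figure D3:**
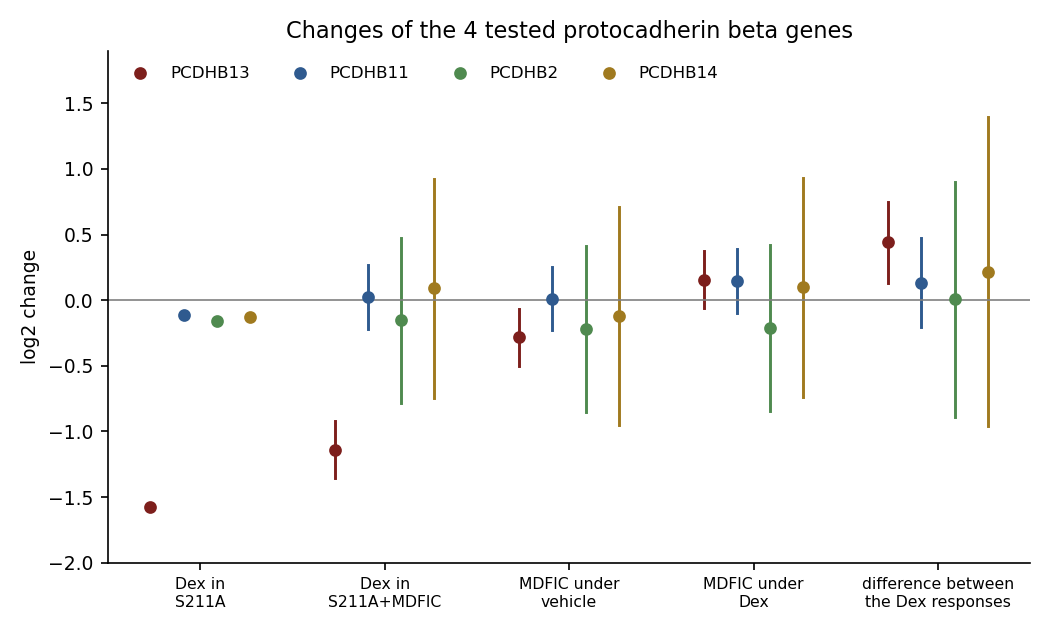
Log2 change (vertical axis) of the 4 tested genes in each of the 5 comparisons (horizontal axis), as points, with 95% intervals except for Dex in S211A, which chose PCDHB13. PCDHB13 lies at -1.58 and -1.14 under Dex, and the intervals of PCDHB11, PCDHB14 and PCDHB2 include 0 in the comparisons drawn with one.

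PCDHB4 (NM_018938, probe A_23_P81262) was at the edge of detection. Its processed signals were 4.86, 9.33 and 4.04 in S211A vehicle and 11.8, 13.2 and 14.1 in S211A Dex. In S211A+MDFIC they were 13.5, 9.06 and 11 under vehicle and 24.0, 18.4 and 12 under Dex. The probe was well above background on 3 of 12 arrays, all under Dex: S211A replicate 3 and S211A+MDFIC replicates 1 and 2. The lowest signal called well above background on an array ran from 10.3 to 18.5, so most PCDHB4 readings lie near or under that limit. The limit was highest on slide 1, at 13.9 to 18.5, which held all S211A vehicle arrays, and was 10.3 to 12.8 on the others, and its part in the PCDHB4 readings was not tested. No group had PCDHB4 well above background on all 3 arrays, and it was therefore not tested. Without the filter on dim probes its fitted Dex change was 1.22 in S211A and 0.70 in S211A+MDFIC (limma adjusted p = 0.155 for the latter), with most of the readings behind both not well above background.

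The remaining genes gave little or no signal. PCDHB12 has 2 probes, 1 of which was well above background on 1 of 12 arrays and the other on none. PCDHB10, PCDHB15 and PCDHB6 were not well above background on any array. The 5 probes of the set well above background on no array had processed signals between 2.13 and 11.9, with spot signals 0.882 to 1.61 times the local background. For these genes the arrays give neither a level nor a Dex response. On a human design read with monkey RNA, a weak probe and a rare transcript cannot be told apart.

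**Figure D4:**
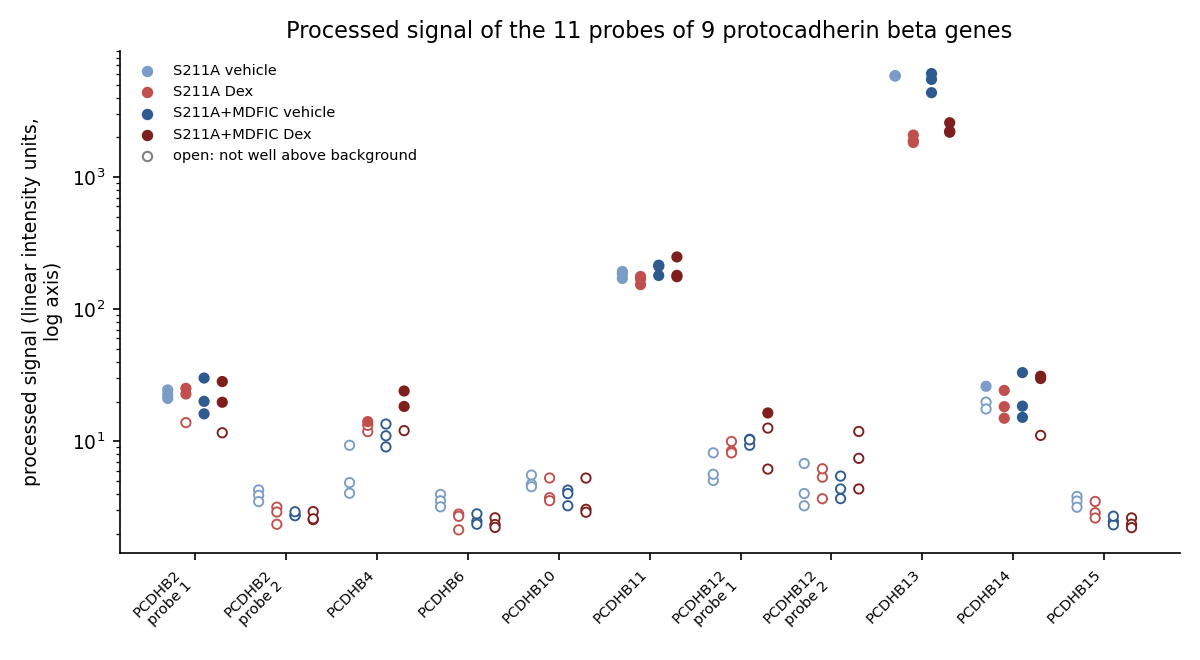
Processed signal (logarithmic axis) of each of the 11 probes on the 12 arrays, 1 point per array, marked by whether the spot was well above background. PCDHB13 lies between 1827 and 6076 and PCDHB11 between 153.4 and 248.5, while the other 9 probes lie at 33.1 or lower.

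None of the 4 tested genes passed the test for MDFIC, compared at a fixed treatment. The comparisons share arrays with the one that chose PCDHB13. As no slide held both groups of either, slide and MDFIC are fully confounded within each comparison. A fixed slide block estimates them only indirectly, through slides where a Dex and a vehicle group met. On slides 1 and 3, 1 of those groups had a single array. Under vehicle, PCDHB13 was 2.39 with MDFIC and 2.68 without, and all 3 samples with MDFIC lay below all 3 without it. The difference of -0.28 (SE 0.10, 95% interval -0.50 to -0.07) did not pass (limma adjusted p = 0.191, unadjusted p = 0.0160), and without scaling between arrays it was -0.15. The groups did not overlap for 1 of the 4 tested genes, PCDHB13, against 28.8% of all accessions. By limma, 0 of 4 were called against 0.948% of all, and 1 of 4 had an unadjusted p under 0.05.

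Under Dex, PCDHB13 stood at 1.25 with MDFIC and 1.10 without, and the samples overlapped. The difference was 0.16 (95% interval -0.06 to 0.37, limma adjusted p = 0.496), and with slide as a fixed block it was -0.077. None of the 4 genes passed, which is 0 of 4 both by limma's adjusted p and at an unadjusted p under 0.05, against 0.427% of all accessions called (105). Leaving out each array in turn gave 36 to 723 called, the lowest without S211A+MDFIC Dex replicate 1 and the highest without its replicate 2. Samples with and without MDFIC overlapped for all 4, while 15% of all accessions did not overlap.

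PCDHB11 differed with MDFIC by 0.01 under vehicle (95% interval -0.23 to 0.25) and by 0.15 under Dex (95% interval -0.09 to 0.39). For PCDHB2 the differences were -0.22 and -0.21, and for PCDHB14 they were -0.12 and 0.10, all smaller than their standard errors. With slide as a fixed block they were -0.89 (SE 0.48) and -0.24 (SE 0.48) for PCDHB2, and -0.43 and -0.81 (SE 0.67 each) for PCDHB14, so the PCDHB14 difference under Dex turned in sign. None passed with the block, with limma adjusted p between 0.537 and 0.998.

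The smaller Dex change of PCDHB13 with MDFIC was tested as a difference between the 2 responses. The response was -1.58 without MDFIC and -1.14 with it, a difference of 0.44 (SE 0.14, 95% interval 0.13 to 0.75). It did not pass over all accessions (limma adjusted p = 0.356, unadjusted p = 0.0101). Since the gene was chosen for its low value in S211A, the first response enters this difference after selection. With slide as a fixed block the difference was 0.29 (adjusted p = 0.758). That value sets the change within slide 3 against that within slide 1, each with a single array on 1 side. By limma 0 of 4 genes were called, against 0.268% of all accessions, and 1 of 4, PCDHB13, had an unadjusted p under 0.05. The background count of 66 accessions was 264 without S211A+MDFIC Dex replicate 2. It was 0 by limma without replicate 1 of S211A Dex, of S211A+MDFIC Dex or of S211A+MDFIC vehicle, or without replicate 3 of S211A Dex, with 1807 to 2510 accessions at an unadjusted p under 0.05. The differences of the others were 0.13 for PCDHB11, 0.22 for PCDHB14 and 0.01 for PCDHB2.

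In the order of group means, PCDHB13 was highest in S211A vehicle, then S211A+MDFIC vehicle, S211A+MDFIC Dex and S211A Dex. The step between both vehicle groups and that between both Dex groups did not pass the test, and neither pair shared a slide. The Dex groups overlapped, and their order turned with slide as a fixed block (-0.077 with MDFIC against without).

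Over the 12 arrays, the accessions with levels most like PCDHB13, of 18662 compared, were NM_000148 (Pearson r = 0.982) and NM_022074 (r = 0.981). The arrays fall into Dex and vehicle sets and share their slides, so these values describe a common split and carry no p. The changes of both were smaller: the Dex change of NM_000148 was -0.49 in S211A and -0.37 in S211A+MDFIC, and that of NM_022074 was -0.29 and -0.26. Ranks 3 to 5 had nearly the same r (0.981, 0.980 and 0.980) and larger changes than these. Their Dex changes were -0.92, -0.79 and -1.09 in S211A and -0.82, -0.51 and -1.07 in S211A+MDFIC. The other tested beta protocadherins had r with PCDHB13 of 0.241 for PCDHB11, 0.236 for PCDHB2 and 0.0790 for PCDHB14.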

How the data were processed

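RNA of 12 cultures was read on as many one-colour Agilent arrays. Each deposited intensity is linear and, per the file headers, background-subtracted and detrended by Feature Extraction 12.0.0.7, which the submitters' processing notes give as version 12. The deposited series-wide table held the same intensity, unscaled. The log2 processed signal minus the array's 75th percentile was used, without control spots and the 945 outlier spots. No spot was saturated. A probe was tested if some group had it well above background on each of its 3 arrays, and the probe with the highest mean stood for its accession. limma 3.58.1 (R 4.3.3) compared 4 group means over 12 arrays, two-sided, with Benjamini-Hochberg adjustment over 24586 accessions and a threshold of 0.05. Figures used matplotlib 3.10.9.

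The members and lists were chosen with earlier results of these data known. The text names the 10 members and the 2 accessions most like PCDHB13 by Pearson r. Lists of other clustered and non-clustered protocadherins, their regulators, neighbouring genes, glucocorticoid-induced genes and cell type markers were set by symbol and, without a symbol table, were not analysed here. Sequences were not used here either. The normexp alternative used the median spot signal.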

Additional observations from a re-analysis of the deposited data

How the results depend on the processing

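The Dex difference of PCDHB13 in S211A ran from -1.64 to -1.53 over 27 alternatives, and its fall in S211A+MDFIC from -1.29 to -1.06, past the threshold in 26 of 27. The exception was the comparison within slide 3, where it was -1.29 (limma adjusted p = 0.138, unadjusted p = 0.000848) with 0 genes of the set called, as 0 of all 24583 accessions were. It has 1 vehicle array, assumed to vary like the others. The fixed slide block, counted among the 26, gave the same -1.29 from that same vehicle array, so it is no separate check. Some of the 27 alternatives could not move the PCDHB13 estimates. The gene has a single probe, and leaving out an array outside a comparison leaves its difference unchanged. With a replicate block the change in S211A+MDFIC was -1.14 (limma adjusted p = 0.000437). The block changed no call among the 4 tested genes, while over all accessions the calls for MDFIC under vehicle went from 233 to 124. Whether the replicate numbers pair the samples is not settled by these arrays. Deviations of same-numbered arrays correlated at -0.259 to 0.247, with r over 0.1 in 4 of 18 pairs. The MDFIC difference under vehicle (-0.37 to -0.15), that under Dex (-0.077 under a fixed slide block, otherwise up to 0.27) and the difference between the Dex responses (0.29 to 0.52) passed under none of their 26, 26 and 25 alternatives. Without scaling, the median of all accessions was 0.12 in both MDFIC comparisons. With each array left out, the accessions called ran from 913 to 1812 for Dex in S211A (1599 with all arrays), 1176 to 4695 for Dex in S211A+MDFIC (2457), 67 to 398 for MDFIC under vehicle (233), 36 to 723 for MDFIC under Dex (105) and 0 to 264 for the difference (66). Each highest count was without S211A+MDFIC Dex replicate 2. For Dex in S211A, which chose PCDHB13, 0 of the set were called within slide 1 (12 of all 24586 accessions), 2 of 9 without the filter on dim probes (3.82% of all) and 1 to 2 with each array left out, PCDHB4 entering by the filter alone. Nothing is read from these counts. Without the filter 2 of 9, PCDHB15 and PCDHB6, were called for MDFIC under vehicle, against 4.5% of all accessions (1456, of which 1231 lower). Neither was well above background on any array. The number of arrays limits the precision, and for PCDHB2, PCDHB14 and PCDHB4 signals near background limit it further.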
